A study of Mus musculus with 10 samples.

Results

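The comparison described here sets 3 libraries of mice given an Rspo1 adenovirus against 3 libraries of mice given an adenovirus for the extracellular domain of LGR5 (LGR5-ECD). These 6 samples, of 10 in the series, were taken by their labels, and the control samples do not enter the test. All mice were Lgr5-eGFP-IRES-CreER animals, in which the Lgr5 locus carries the GFP and CreER cassette, and each sample holds GFP-positive cells that were sorted after the proximal jejunum had been dissociated. Each virus was injected intravenously, so the treatment reached the whole animal. The labels call the Rspo1 samples R-spondin gain of function and the LGR5-ECD samples loss of function; they give no age, dose or time after injection. They are described as biological replicates, and the design text does not say how many mice stand behind each. Because GFP is read from the Lgr5 locus, a change of Lgr5 itself can also change which cells the sort collects, and in bulk RNA fewer cells of a type and less RNA per cell cannot be told apart.

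R-spondins are secreted proteins that bind LGR receptors on epithelial cells and remove the E3 ligases RNF43 and ZNRF3 from the membrane, which leaves more Frizzled receptors for Wnt. In the small intestine this pathway maintains the stem cells at the crypt base, whose daughters become absorptive enterocytes or secretory goblet, Paneth, enteroendocrine and tuft cells as they move to the villus. A soluble LGR5 extracellular domain can bind R-spondins away from the cell and so acts as a decoy. The comparison asks which genes of the sorted cells differ between added R-spondin and added decoy.

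Transcript levels were FPKM, fragments scaled to transcript length and library size, as the authors deposited them, so read depth was unknown and no counting interval could be given. FPKM summed to 227113 to 275937 per library. LGR5-ECD replicate 3 stood apart, with 11485 symbols above 0 against 13670 to 14197 in the other 5 libraries. Its correlation across genes with the other LGR5-ECD libraries was 0.905 and 0.912, against 0.96 between those, 0.959 to 0.966 among the Rspo1 libraries and 0.846 to 0.919 between groups. The median SD of log2(FPKM + 1) over genes was 0.216 in Rspo1 and 0.313 in LGR5-ECD (n = 3 each). Over 2 LGR5-ECD libraries it was 0.296, 0.293 and 0.182 without replicate 1, 2 and 3. Over 2 Rspo1 libraries it was 0.166 to 0.192. Immune markers summed to 25.6 to 35.01 FPKM in Rspo1 and 21.9 to 32.8 in LGR5-ECD, with 12 of 36 listed at 0 in all 6, Cd3d, Cd4 and C1qa among them. Stromal, endothelial, neural and red cell markers summed to 6.24 to 10.7 and 6.04 to 7.18 FPKM, with Col1a1, Pdgfra, Cdh5 and 7 more of 31 listed at 0. Both lists thus summed to low levels in both groups, but not to 0. Of the immune markers 6, and of the other list 4, reached 1 FPKM in at least 2 of the 8 libraries of the table. Which cells held this RNA was not tested. The gene whose locus carries the GFP was low in the LGR5-ECD libraries, where Lgr5 stood at 8.31, 2.84 and 4.28 FPKM against 96.4, 113 and 100.2 FPKM in Rspo1. The Rspo1 gene was listed at 0 in all 6 libraries, so the sorted cells' own RNA does not check which virus a mouse received.

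Of 11454 genes tested, 598 were higher in Rspo1 (5.22%) and 435 lower (3.8%), 9.02% in all, by limma on log2(FPKM + 1) with a Benjamini-Hochberg adjusted p under 0.05. In each of these 1033 genes the groups did not overlap, whereas 18.9% of all tested genes had every Rspo1 library above every LGR5-ECD library and 12.1% had the reverse. At an unadjusted p under 0.05 there were 2849 genes. Changes were often large, with 431 rises and 321 falls of at least 2-fold, 89 and 79 of at least 4-fold, and 20 and 12 of at least 8-fold on the FPKM + 1 scale. A rise of at least 16-fold was seen for 5 genes and a fall of that size for 0. The share called grew with the level. Below a mean of 2 FPKM it was 2.68% higher and 1.80% lower, and at 50 FPKM or more 10.9% and 7.25%. The median SE of the log2 change fell between these levels, from 0.323 to 0.187. The median log2 change of all tested genes was 0.08 as deposited, 0.02 after median-ratio scaling and 0.00 after quantile normalization. Of the genes tested, 649 reached 1 FPKM in at least 2 Rspo1 libraries but in fewer than 2 LGR5-ECD libraries, and 439 the reverse. In the first set 113 were called higher and in the second 79 lower. Control libraries also entered the filter, so these genes may have passed through them too. A further 249 tested genes had fewer than 2 of the 6 libraries at 1 FPKM.

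**Figure D1:**
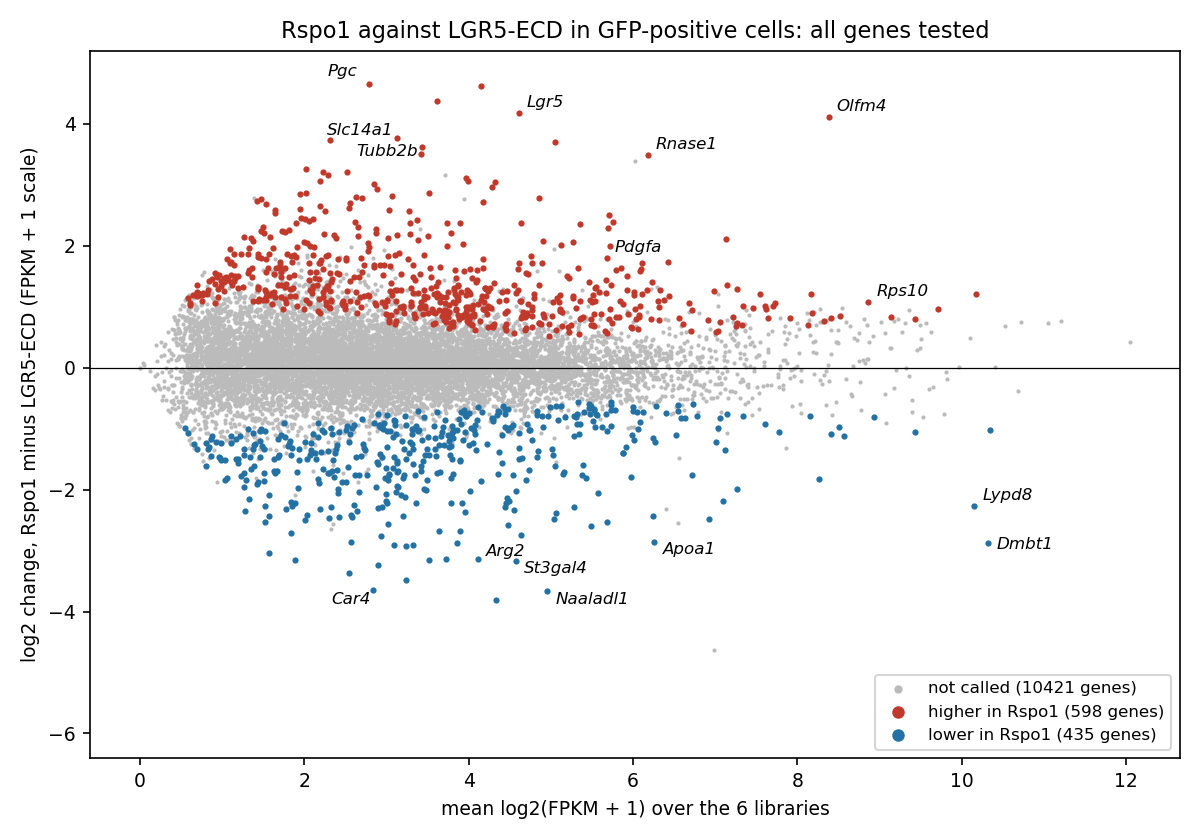
Each point is 1 of the 11454 genes tested, with the mean log2(FPKM + 1) of the 6 libraries on the x axis and the log2 change, Rspo1 minus LGR5-ECD, on the y axis. The 598 genes called higher (red) reach a log2 change of 4.66 for Pgc and the 435 called lower (blue) reach -3.82, and both lie across most of the range of levels; grey points are not called, and their distance from 0 can exceed that of called genes where the libraries scatter.

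The number of calls rested on the libraries. Without Rspo1 replicate 1, 2 or 3 there were 299, 202 or 219 genes higher and 233, 169 or 221 lower. Without LGR5-ECD replicate 1 there were 485 and 365, without replicate 2 there were 408 and 251, and without replicate 3, the library with fewest symbols, 667 and 528. In all 6 of these fits 182 of the 598 rises and 155 of the 435 falls were called, and 0 genes were called in the opposite direction. LGR5-ECD replicate 3 held the lowest value of its group in 359 of the 598 genes called higher. The genes described below were called in each of the 6 fits unless a library is named beside them. Where a family's count is followed by a range, the range is over these 6 fits. Family counts are read beside the 5.22% of all genes called higher and the 3.8% called lower in the fit of all 6 libraries.

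The 5 largest rises were led by Pgc, which encodes a pepsinogen. Pgc stood at 29.9, 27.02 and 46.9 FPKM in the Rspo1 libraries and at 1.33, 0.104 and 0 FPKM in the LGR5-ECD libraries (log2 fold change 4.66, SE 0.36, adjusted p = 0.000399). Thus a gastric protease gene was at the edge of detection in 2 LGR5-ECD libraries and well above it in every Rspo1 library. Gkn3, a gastrokine gene, was at 63.6, 92.3 and 112 FPKM in Rspo1 against 0.387, 1.74 and 11.2 in LGR5-ECD (log2 fold change 4.62, SE 0.67, adjusted p = 0.00525). Ccdc3 was at 42.6, 63.96 and 59.7 FPKM in Rspo1 against 3.36, 2.32 and 0.346 in LGR5-ECD (log2 fold change 4.37, SE 0.40, adjusted p = 0.000796). The highest LGR5-ECD value of both genes lay far below the lowest Rspo1 value, although for Gkn3 it came from replicate 3 and for Ccdc3 replicate 3 was the lowest. Lgr5 (log2 fold change 4.18, SE 0.29, adjusted p = 0.000286) and Olfm4, a secreted stem cell marker (log2 fold change 4.12, SE 0.60, adjusted p = 0.00525), completed the 5.

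Other large rises were in genes of varied function. Lgr5, Olfm4 and Gkn3 above, and Ascl2, Nkd1, Tnfrsf19, Soat1 and Ephb3 below, are on the list of crypt base stem cell markers. Slc14a1, a urea transporter gene, was at 33.7, 34.8 and 25.8 FPKM in Rspo1 against 2.81, 0.888 and 0.840 in LGR5-ECD (log2 fold change 3.77, SE 0.30, adjusted p = 0.000466). Tubb2b, a beta-tubulin gene, was at 39.8, 42.3 and 29.4 FPKM in Rspo1 against 3.86, 1.90 and 1.05 in LGR5-ECD (log2 fold change 3.62, SE 0.31, adjusted p = 0.000658). Rnase1, a secreted ribonuclease gene, was at 180.2, 226 and 348 FPKM in Rspo1 against 23.3, 19.3 and 19.8 in LGR5-ECD (log2 fold change 3.48, SE 0.24, adjusted p = 0.000285). The 3 LGR5-ECD libraries of Rnase1 lay close together while the Rspo1 libraries spread, with replicate 3 the highest. Slc1a2, a glutamate transporter gene, was at 11.9, 16.5 and 9.12 FPKM in Rspo1 against 2.44, 0.147 and 0 in LGR5-ECD (log2 fold change 3.06, SE 0.46, adjusted p = 0.00626). Igfbp4, whose product binds insulin-like growth factors, was at 57.2 ± 10.6 FPKM in Rspo1 against 6.40 ± 2.94 FPKM in LGR5-ECD (SD, n = 3 each) (log2 fold change 3.05, SE 0.32, adjusted p = 0.00115). Phlda1, the secreted phospholipase gene Pla2g2a, the bHLH factor gene Ascl2, the Wnt inhibitor gene Nkd1, the TNF receptor gene Tnfrsf19, the sterol transfer gene Gramd1a, Agr3, Soat1, Ephb3 and Fam222a made up the other 10 of the 20 largest, with log2 changes from 3.01 to 3.74.

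**Figure D2:**
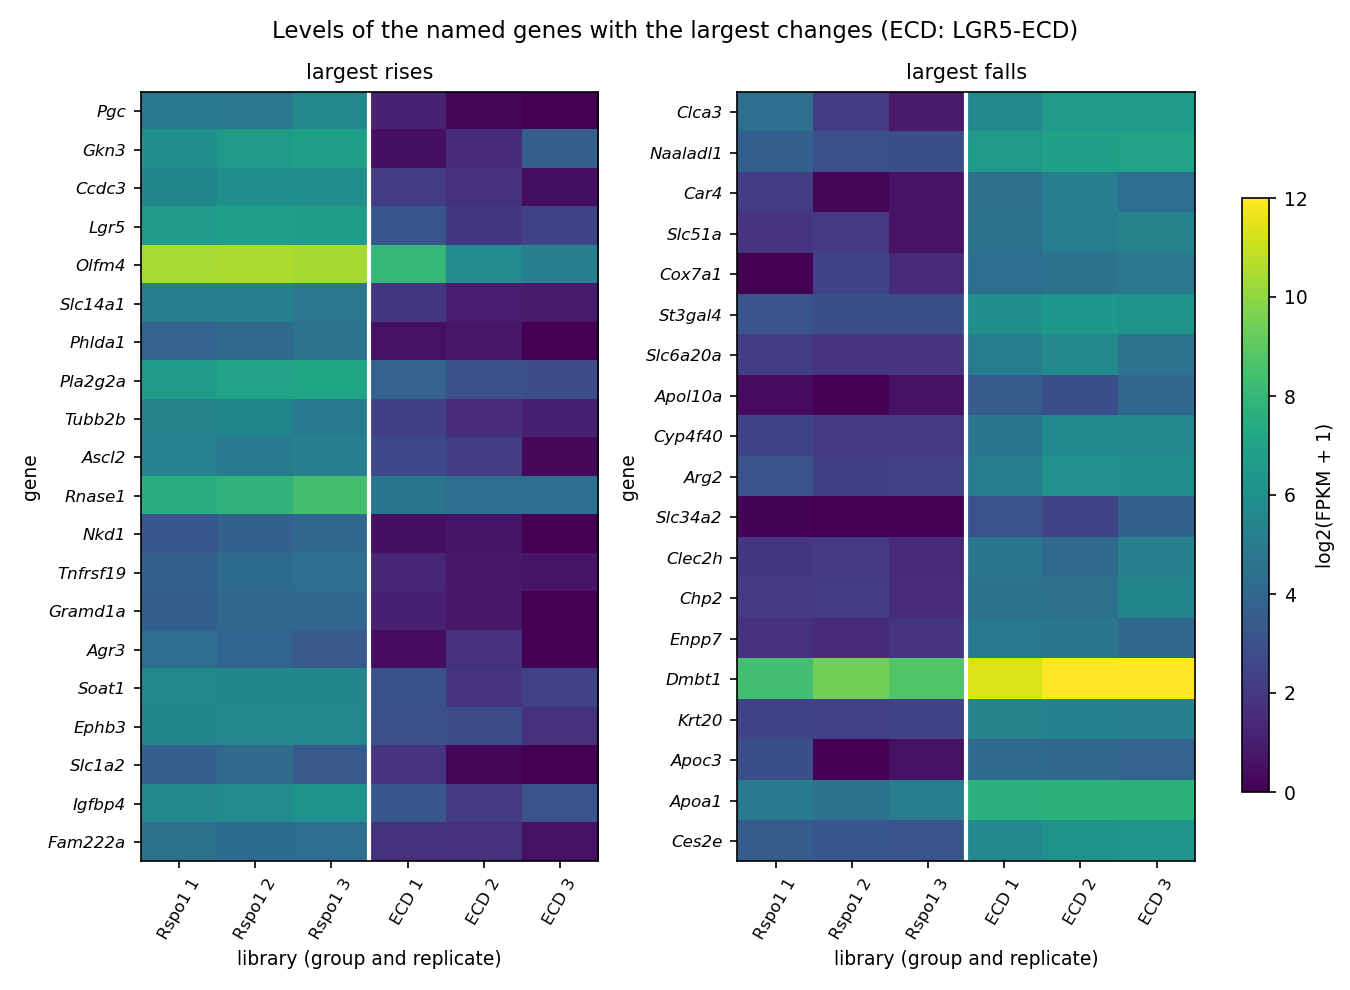
Colour gives log2(FPKM + 1) in each of the 6 libraries (columns) for the named genes with the 20 largest rises (left) and 19 of the 20 with the largest falls (right). In every row the 3 Rspo1 libraries lie on the other side of the 3 LGR5-ECD libraries without overlap; Olfm4 and Dmbt1 stand out by their level, and the Rspo1 libraries scatter most for Clca3, at 19.6, 3.20 and 0.797 FPKM.

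Among the largest falls, Naaladl1, which encodes a brush border peptidase, was at 10.8, 6.53 and 6.37 FPKM in Rspo1 against 89.8, 116 and 127 in LGR5-ECD (log2 fold change -3.67, SE 0.23, adjusted p = 0.000242). The gap between the groups was wide beside the spread within them. St3gal4, a sialyltransferase gene, was at 8.08, 6.42 and 6.46 FPKM in Rspo1 against 62.1, 82.3 and 69.4 in LGR5-ECD (log2 fold change -3.18, SE 0.17, adjusted p = 0.000237). Arg2, the mitochondrial arginase gene, was at 7.27, 3.73 and 4.14 FPKM in Rspo1 against 33.3, 66.6 and 57.5 in LGR5-ECD (log2 fold change -3.13, SE 0.30, adjusted p = 0.000925). Enpp7, the gene of the alkaline sphingomyelinase that digests dietary sphingomyelin, was at 2.24, 1.65 and 2.51 FPKM in Rspo1 against 27.996, 24.8 and 15.8 in LGR5-ECD (log2 fold change -2.90, SE 0.25, adjusted p = 0.000658). In each of these 3 genes the lowest LGR5-ECD value was several times the highest Rspo1 value. Clca3, a gene of secreted goblet cell protein, had the largest fall (log2 fold change -3.82, SE 0.75, adjusted p = 0.0174), with 19.6, 3.20 and 0.797 FPKM in Rspo1 against 48.8, 87.8 and 97.9 in LGR5-ECD, and an adjusted p of up to 0.0829 without LGR5-ECD replicate 2 or Rspo1 replicate 2. Apoc3 (log2 fold change -2.87, SE 0.64, adjusted p = 0.0274) had an adjusted p of up to 0.116 without LGR5-ECD replicate 1 or 2 or Rspo1 replicate 2 or 3.

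In FPKM rather than log2 terms, and among named genes, the largest losses were in Dmbt1 and Lypd8. Dmbt1, a secreted scavenger receptor of mucosal surfaces, was at 346, 702 and 431 FPKM in Rspo1 against 2519, 4042 and 4135 in LGR5-ECD (log2 fold change -2.88, SE 0.33, adjusted p = 0.00184). Lypd8, a GPI-anchored protein known in the colon for holding flagellated bacteria off the epithelium, was at 559, 375 and 663 FPKM in Rspo1 against 2490.2, 2719 and 2275 in LGR5-ECD (log2 fold change -2.26, SE 0.26, adjusted p = 0.00195). Both were among the most abundant transcripts of the LGR5-ECD libraries and were several times lower in every Rspo1 library. The largest gains were in Olfm4, at 1391 ± 74.7 FPKM in Rspo1 against 114 ± 119 FPKM in LGR5-ECD (SD, n = 3 each), and in Clca3b, at 1761 ± 102 FPKM in Rspo1 against 775 ± 185 FPKM in LGR5-ECD (SD, n = 3 each) (log2 fold change 1.21, SE 0.25, adjusted p = 0.0213). Clca3b was not a stable call, with an adjusted p of up to 0.0867 without LGR5-ECD replicate 2 or Rspo1 replicate 1, 2 or 3. Its relative Clca3 went the other way, and the split of reads between such copies is uncertain.

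Receptors and ligands made up a group in which rises outnumbered falls. Of 25 receptor tyrosine kinase genes tested 6 rose (4 to 6) and 1 fell, 24% and 4% beside 5.22% and 3.8% of all genes. Their median log2 change was 0.41 against 0.08 for all genes. Ephb3, a receptor for ephrin-B that positions crypt cells, was at 41.96, 46.2 and 46.5 FPKM in Rspo1 against 6.74, 5.71 and 2.18 in LGR5-ECD (log2 fold change 3.06, SE 0.31, adjusted p = 0.00109). The fibroblast growth factor receptor gene Fgfr4 was at 13.7, 14.9 and 14.6 FPKM in Rspo1 against 4.12, 3.53 and 5.41 in LGR5-ECD (log2 fold change 1.54, SE 0.20, adjusted p = 0.00296). Its relative Fgfr2 was at 8.62, 8.30 and 7.27 FPKM in Rspo1 against 2.38, 1.73 and 2.17 in LGR5-ECD (log2 fold change 1.55, SE 0.21, adjusted p = 0.00388). The 3 Rspo1 libraries of both genes were narrow and lay well above the highest LGR5-ECD library. Fgfrl1, a receptor of the same family without a kinase domain, also rose (log2 fold change 2.72, SE 0.46, adjusted p = 0.00899), with an adjusted p of up to 0.0502 without Rspo1 replicate 2. The single fall was in Mertk, a receptor for apoptotic cells (log2 fold change -1.09, SE 0.24, adjusted p = 0.0265), with an adjusted p of up to 0.112 without LGR5-ECD replicate 1 or 2 or Rspo1 replicate 1, 2 or 3. Ddr1 and Ptk7, named after their values were seen, were the other 2 that rose (1.28 and 1.17); Ptk7 had an adjusted p of up to 0.123 without LGR5-ECD replicate 1 or 2 or Rspo1 replicate 2 or 3.

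Among 47 genes of secreted growth factors, morphogens and guidance cues, 12 rose (7 to 15) and 2 fell (1 to 4), with a median of 0.50. The shares were 25.5% and 4.26% beside 5.22% and 3.8% of all genes. Pdgfa, a growth factor that acts on the mesenchyme around the epithelium, was at 89.5, 95.6 and 99.8 FPKM in Rspo1 against 26.5, 24.2 and 28.8 in LGR5-ECD (log2 fold change 1.81, SE 0.14, adjusted p = 0.000427). Sema7a, a membrane-anchored semaphorin gene, was at 66.4, 76.5 and 64.7 FPKM in Rspo1 against 18.4, 13.04 and 18.3 in LGR5-ECD (log2 fold change 2.01, SE 0.18, adjusted p = 0.000658). Bmp7, a bone morphogenetic protein gene, was at 27.6, 33.04 and 32.3 FPKM in Rspo1 against 9.91, 10.1 and 7.83 in LGR5-ECD (log2 fold change 1.64, SE 0.17, adjusted p = 0.00115). For all 3 the spread within groups was small beside the gap between them. Bmp3, another member of the BMP family, moved the opposite way, at 5.55, 7.81 and 4.84 FPKM in Rspo1 against 15.6, 30.3 and 21.7 in LGR5-ECD (log2 fold change -1.71, SE 0.27, adjusted p = 0.00653). Of 28 BMP and TGF-beta pathway genes 4 rose (3 or 4) and 3 fell (2 in each of the 6 fits), 14.3% and 10.7%. They included the secreted Fstl1 (log2 fold change 2.68, SE 0.26, adjusted p = 0.000925), listed at 0 in 2 LGR5-ECD libraries, the receptor gene Tgfbr2 (log2 fold change 1.83, SE 0.30, adjusted p = 0.00745) and the matrix gene Tgfbi (log2 fold change -2.02, SE 0.31, adjusted p = 0.00633). Of 8 Hedgehog pathway genes the signal transducer Smo rose from 17.5, 15.5 and 7.67 to 39.8, 41.1 and 44.03 FPKM (log2 fold change 1.62, SE 0.27, adjusted p = 0.00879), and the co-receptor gene Boc rose with an adjusted p of up to 0.143 without LGR5-ECD replicate 2 or Rspo1 replicate 1, 2 or 3. Of 8 chemokine genes, Ccl27a (log2 fold change 2.73, SE 0.33, adjusted p = 0.00213) and Cxcl16 (log2 fold change 1.97, SE 0.32, adjusted p = 0.00715) rose in each of the 6 fits. Ccl6 fell (log2 fold change -2.29, SE 0.39, adjusted p = 0.00924) with an adjusted p of up to 0.0522 without Rspo1 replicate 2.

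G protein coupled receptor genes split, with 9 of 63 up (7 to 12) and 6 down (1 to 7). The shares were 14.3% and 9.52% beside 5.22% and 3.8% of all genes. Chrm3, the M3 muscarinic acetylcholine receptor gene, was at 13.7, 11.002 and 14.6 FPKM in Rspo1 against 1.38, 2.49 and 1.34 in LGR5-ECD (log2 fold change 2.38, SE 0.24, adjusted p = 0.00109). The Wnt receptor genes of the Frizzled family did not move together. Fzd7 was at 11.6, 14.8 and 12.3 FPKM in Rspo1 against 2.57, 2.28 and 2.25 in LGR5-ECD (log2 fold change 2.04, SE 0.20, adjusted p = 0.000925), whereas Fzd5 was at 16.6, 14.1 and 13.2 FPKM in Rspo1 against 28.5, 47.4 and 39.4 in LGR5-ECD (log2 fold change -1.31, SE 0.21, adjusted p = 0.00689). On this scale, which is per transcript length, Fzd7 was the lower of the pair in every library but Rspo1 replicate 2, and the gap between them was narrow in Rspo1 and wide in LGR5-ECD. Within the list of TNF ligands and receptors, Tnfrsf19 rose (log2 fold change 3.22, SE 0.27, adjusted p = 0.000526), while Tnfsf10, a death ligand gene (log2 fold change 1.00, SE 0.22, adjusted p = 0.0266), and Tnfrsf14 (log2 fold change -1.10, SE 0.19, adjusted p = 0.00899) had adjusted p above 0.05 in some fits, up to 0.109 and 0.0513. Those fits were without LGR5-ECD replicate 2 or any of the Rspo1 replicates for Tnfsf10 and without Rspo1 replicate 2 for Tnfrsf14.

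Several transcription factor families held more rises than falls, as did all genes tested, at 598 and 435. All 5 SOX factor genes tested had a positive log2 change, and 3 were called: Sox4 (log2 fold change 2.38, SE 0.19, adjusted p = 0.000427), Sox9 (log2 fold change 2.00, SE 0.23, adjusted p = 0.00175) and Sox13 (log2 fold change 0.93, SE 0.24, adjusted p = 0.0474), the last with an adjusted p of up to 0.157 without LGR5-ECD replicate 1, 2 or 3 or Rspo1 replicate 2 or 3. Sox4 stood at 20.2, 24.9 and 19.1 FPKM in Rspo1 against 3.21, 3.67 and 2.99 in LGR5-ECD, tight in both groups. Foxa3, a forkhead factor gene, was at 53.7, 55.4 and 58.2 FPKM in Rspo1 against 9.86, 10.3 and 9.74 in LGR5-ECD (log2 fold change 2.37, SE 0.14, adjusted p = 0.000242). In all, 4 of 16 FOX genes rose (1 to 4), 25% beside 5.22% of all genes. The 1 that fell, Foxm1 (log2 fold change -0.63, SE 0.16, adjusted p = 0.0423), had an adjusted p of up to 0.137 without LGR5-ECD replicate 1, 2 or 3 or Rspo1 replicate 1, 2 or 3. Foxa3 is on the goblet marker list too, where it was the only member that rose while 9 of 22 fell (1 to 13). Of 19 GATA, ETS and RUNX genes 5 rose (3 to 6), 26.3%, and 0 fell by limma (1 at an unadjusted p under 0.05). They included Ets2, at 109.9, 120.4 and 119 FPKM in Rspo1 against 48.4, 32.4 and 35.1 in LGR5-ECD (log2 fold change 1.59, SE 0.18, adjusted p = 0.00169), Etv6 (log2 fold change 1.19, SE 0.19, adjusted p = 0.0065) and Gata5 (log2 fold change 1.12, SE 0.18, adjusted p = 0.00654), the last with 120.2, 112 and 134 FPKM in Rspo1 against 54.8, 67.3 and 46.3 in LGR5-ECD. The other 2, Ehf (0.88) and Etv4 (1.79), were named after their values were seen, and had adjusted p up to 0.0683 and 0.0923 without 1 library (Rspo1 replicate 2 or 3 for Ehf, LGR5-ECD replicate 2 or Rspo1 replicate 2 or 3 for Etv4).

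In the list of basic helix-loop-helix and ID factors, 9 of 39 rose (6 to 10) and 3 fell (0 to 3). The shares were 23.1% and 7.69% beside 5.22% and 3.8% of all genes. Tcf7, which the symbol pattern placed there although it is an HMG-box factor of the Wnt pathway, was at 16.3, 13.9 and 15.4 FPKM in Rspo1 against 3.60, 2.56 and 1.25 in LGR5-ECD (log2 fold change 2.28, SE 0.28, adjusted p = 0.00224). Mycl, a gene of the MYC family, was at 30.5, 26.3 and 30.97 FPKM in Rspo1 against 9.499, 13.1 and 11.1 in LGR5-ECD (log2 fold change 1.31, SE 0.17, adjusted p = 0.00333). Atoh8 was at 6.04, 4.86 and 9.28 FPKM in Rspo1 against 0.941, 0.118 and 0 in LGR5-ECD (log2 fold change 2.54, SE 0.34, adjusted p = 0.00367). Atoh8 was thus under 1 FPKM in each LGR5-ECD library, where Mycl was readily detected. The Wnt target Sp5, a zinc finger factor that represses Wnt genes, was at 11.9, 16.4 and 18.1 FPKM in Rspo1 against 2.52, 1.53 and 0.443 in LGR5-ECD (log2 fold change 2.79, SE 0.34, adjusted p = 0.00224). Tead2, a partner of the coactivators YAP and TAZ, was at 8.93, 9.80 and 13.1 FPKM in Rspo1 against 2.05, 0.695 and 0.154 in LGR5-ECD (log2 fold change 2.66, SE 0.36, adjusted p = 0.00386). The YAP target Cyr61 was at 10.99, 5.23 and 10.1 FPKM in Rspo1 against 0.385, 0.327 and 1.84 in LGR5-ECD (log2 fold change 2.44, SE 0.38, adjusted p = 0.00653). Among 14 such genes 3 rose (2 to 4) and 1 fell, 21.4% and 7.14%. The fall was in Ly6a (log2 fold change -2.45, SE 0.41, adjusted p = 0.00898).

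Nuclear receptor genes leaned the other way, with 2 of 34 up (0 to 2) and 5 down (2 to 7). The shares were 5.88% and 14.7% beside 5.22% and 3.8% of all genes, so the share up was close to that of all genes. Hnf4g, a receptor of differentiating enterocytes, was at 3.88, 3.34 and 4.18 FPKM in Rspo1 against 14.9, 15.4 and 12.05 in LGR5-ECD (log2 fold change -1.65, SE 0.19, adjusted p = 0.00197). Nr1i3, the xenobiotic sensor CAR, was at 0, 0.758 and 0.527 FPKM in Rspo1 against 4.34, 5.37 and 3.18 in LGR5-ECD (log2 fold change -1.91, SE 0.31, adjusted p = 0.00714). Both were lower in every Rspo1 library by a wide margin, and Nr1i3 was under 1 FPKM there. Among 29 homeobox genes 6 rose (1 to 5) and 2 fell (0 to 2), 20.7% and 6.90%. Tgif1, a corepressor gene, was at 90.2, 76.3 and 84.6 FPKM in Rspo1 against 38.5, 37.2 and 44.4 in LGR5-ECD (log2 fold change 1.05, SE 0.15, adjusted p = 0.00465). Isx, which represses vitamin A uptake genes, fell (log2 fold change -0.95, SE 0.20, adjusted p = 0.023) with an adjusted p of up to 0.0903 without LGR5-ECD replicate 2 or Rspo1 replicate 2 or 3. Hoxb9 was the single called gene listed at 0 in all 3 Rspo1 libraries, of 14 such genes tested; it was at 1.49, 1.11 and 4.42 FPKM in LGR5-ECD (adjusted p = 0.0328), with an adjusted p of up to 0.114 without Rspo1 replicate 1, 2 or 3. Of 14 tested genes listed at 0 in all 3 LGR5-ECD libraries 0 were called by limma and 7 had an unadjusted p under 0.05. Zinc finger genes named Zfp gave 18 rises of 232 (3 to 15) and 0 falls (2 at an unadjusted p under 0.05 by limma), a share of 7.76% beside 5.22% for all genes.

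Promoter sequences of called genes were then read for short binding motifs, since several of the transcription factors above bind known letters. Windows of 250 bases before to 50 after the annotated start came from RefSeq on GRCm38.p6, matched by gene name to 9220 of the 11454 genes, 468 of those called higher and 346 of those called lower. Either strand counted. The TCF/LEF core ATCAAAG, read by the factors through which Wnt acts, was in 3.42% of promoters of genes called higher, 3.47% of those called lower and 2.69% of all tested. A match is a description of letters and not evidence of binding, and enhancers lie outside these windows. The windows of Slc1a2 and Sp5 are shown because these were the named rises with the largest change that hold the core, which stands in capitals, on the opposite strand in Sp5, and begins 207 and 104 bases before the start. Slc1a2 lies at chr2:102706188-102706487 (plus strand) and Sp5 at chr2:70474673-70474972 (plus strand).
Slc1a2: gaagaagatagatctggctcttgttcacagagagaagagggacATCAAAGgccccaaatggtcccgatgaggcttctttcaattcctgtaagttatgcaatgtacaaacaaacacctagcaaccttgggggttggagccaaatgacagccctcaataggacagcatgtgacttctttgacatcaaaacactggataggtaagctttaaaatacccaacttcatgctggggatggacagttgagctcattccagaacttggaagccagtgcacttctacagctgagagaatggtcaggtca
Sp5: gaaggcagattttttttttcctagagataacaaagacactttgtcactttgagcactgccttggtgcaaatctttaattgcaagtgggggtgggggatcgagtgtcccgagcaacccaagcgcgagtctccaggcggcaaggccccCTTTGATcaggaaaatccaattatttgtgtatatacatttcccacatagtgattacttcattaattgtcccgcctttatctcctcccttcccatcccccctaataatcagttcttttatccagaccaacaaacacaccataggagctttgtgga

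The core of the interferon-stimulated response element, GAAANNGAA, was in 7.48% of promoters of genes called higher, 9.54% of those called lower and 7.02% of all tested. Apol10a and Oas1a are shown as named falls whose windows hold it. The C-type lectin gene Clec2h (log2 fold change -2.92) holds it too, 152 bases before the start, and its window is not shown. In Apol10a, at chr15:77476797-77477096 (plus strand), the match lies on the opposite strand and begins 50 bases before the start. In Oas1a, at chr5:120907476-120907775 (minus strand), a pair of overlapping matches begins 20 and 14 bases before the start. Capitals mark the matches.
Apol10a: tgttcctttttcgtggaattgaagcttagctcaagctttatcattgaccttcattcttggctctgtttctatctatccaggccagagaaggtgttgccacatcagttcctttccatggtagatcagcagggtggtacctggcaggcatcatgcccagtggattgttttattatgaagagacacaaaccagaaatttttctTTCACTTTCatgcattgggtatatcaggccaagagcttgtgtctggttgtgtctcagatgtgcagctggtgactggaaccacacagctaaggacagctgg
Oas1a: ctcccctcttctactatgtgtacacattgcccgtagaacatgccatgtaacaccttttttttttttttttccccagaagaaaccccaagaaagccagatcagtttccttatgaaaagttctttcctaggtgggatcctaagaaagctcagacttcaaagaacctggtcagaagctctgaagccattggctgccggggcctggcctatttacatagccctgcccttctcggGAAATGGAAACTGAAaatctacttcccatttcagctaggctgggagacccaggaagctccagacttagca

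The core letters of caudal factors, TTTATNG, which the intestinal regulator CDX2 reads, were in 13.9% of promoters of genes called lower, 5.13% of those called higher and 7.13% of all tested. These letters can overlap the TATA box. A TATAAA between 45 and 11 bases before the start was in 4.91% of promoters of genes called lower, 4.06% of those called higher and 1.59% of all tested. Outside that window the caudal core was in 10.4%, 3.42% and 5.99%. Base composition differed as well, with a median GC content of 56.3% for genes called lower, 62% for those called higher and 60.7% for all tested, and its part in the motif shares was not tested. The window of Cyp4f40, a fatty acid hydroxylase gene, at chr17:32658636-32658935 (plus strand), holds the core on the opposite strand 98 bases before the start; it was chosen after its values were seen. Shares for the other 7 motifs are in the plot of motif shares.
Cyp4f40: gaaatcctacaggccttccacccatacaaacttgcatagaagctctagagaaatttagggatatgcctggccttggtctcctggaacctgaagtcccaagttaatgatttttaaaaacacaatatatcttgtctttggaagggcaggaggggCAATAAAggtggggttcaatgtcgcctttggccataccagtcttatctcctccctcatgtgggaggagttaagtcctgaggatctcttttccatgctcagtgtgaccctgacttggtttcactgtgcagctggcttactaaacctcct

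**Figure D3:**
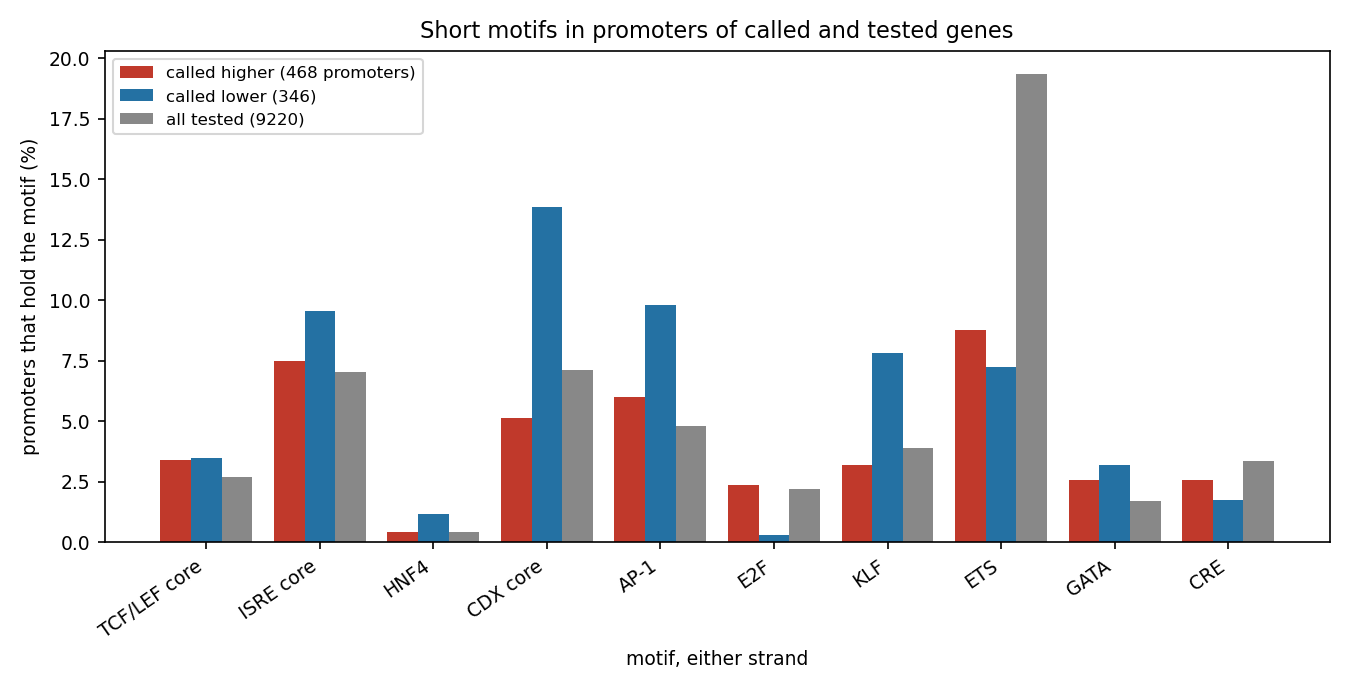
Bars give the percentage of promoter windows that hold each of 10 short motifs on either strand, for 468 genes called higher (red), 346 called lower (blue) and 9220 tested (grey). The caudal core (CDX) stands at 13.9% among genes called lower against 7.13% of all tested, AP-1 at 9.83% against 4.79% and KLF at 7.80% against 3.88%, whereas the ETS motif is rarer among both called groups (8.76% and 7.23%) than among all tested (19.3%).

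Solute carriers, the largest transporter family, gave 13 rises (5 to 17) and 34 falls (20 to 42) among 228 genes, 5.70% and 14.9% beside 5.22% and 3.8% of all genes. Slc34a2, a phosphate cotransporter gene, was at 0.0966, 0 and 0 FPKM in Rspo1 against 7.52, 4.51 and 12.1 in LGR5-ECD (log2 fold change -3.04, SE 0.33, adjusted p = 0.00149). Slc6a20a, a proline transporter gene, was at 3.44, 2.60 and 2.49 FPKM in Rspo1 against 32.7, 49.5 and 22.5 in LGR5-ECD (log2 fold change -3.16, SE 0.28, adjusted p = 0.000678). Slc7a9, a subunit of the cystine transporter, was at 2.76, 2.07 and 2.31 FPKM in Rspo1 against 17.8, 15.8 and 13.5 in LGR5-ECD (log2 fold change -2.30, SE 0.20, adjusted p = 0.000658). For these 3 genes each Rspo1 library lay below every LGR5-ECD library. Over the whole list 89 members had a positive log2 change. Slc51a, a subunit gene of the bile acid exporter OSTalpha-OSTbeta, was at 2.52, 3.14 and 0.551 FPKM in Rspo1 against 21.6, 32.7 and 40.3 in LGR5-ECD (log2 fold change -3.48, SE 0.39, adjusted p = 0.00159). Besides Slc14a1 and Slc1a2, rises included the fatty acid transporter gene Slc27a1, at 28.5, 24.3 and 27.1 FPKM in Rspo1 against 8.48, 9.36 and 10.6 in LGR5-ECD (log2 fold change 1.40, SE 0.16, adjusted p = 0.0019). The organic anion carrier gene Slco3a1 was at 37.4, 45.01 and 48.99 FPKM in Rspo1 against 15.3, 14.01 and 8.9995 in LGR5-ECD (log2 fold change 1.72, SE 0.22, adjusted p = 0.00271).

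Potassium, chloride and cation channel genes gave 7 rises (1 to 6) and 7 falls (1 to 6) of 43, 16.3% each way, with a median of 0. The symbol pattern placed Clca3, a fall, in this list although it is a gene of secreted protein. Its relative Clca3b, a rise, was placed there too, so the counts are not of channels alone. Kcnq1, a basolateral potassium channel subunit used in chloride secretion, was at 244, 234 and 244 FPKM in Rspo1 against 104, 126 and 71.4 in LGR5-ECD (log2 fold change 1.29, SE 0.21, adjusted p = 0.00833). Its partner subunit gene Kcne3 was at 86.2, 66.9 and 64.97 FPKM in Rspo1 against 27.9, 21.3 and 39.5 in LGR5-ECD (log2 fold change 1.30, SE 0.23, adjusted p = 0.0116), with an adjusted p of up to 0.0547 without Rspo1 replicate 1 or 2. Slc12a2, the basolateral chloride uptake carrier NKCC1 and also a stem cell marker of the list, was at 115, 125 and 124 FPKM in Rspo1 against 57.6, 41.8 and 38.6 in LGR5-ECD (log2 fold change 1.40, SE 0.18, adjusted p = 0.00278). Other channel genes fell, Kcnk5 (log2 fold change -1.34, SE 0.20, adjusted p = 0.00588) and Ano6 (log2 fold change -0.93, SE 0.17, adjusted p = 0.0117) among them, the second with an adjusted p of up to 0.0609 without Rspo1 replicate 2 or 3. Both falls were named after their values were seen. Slc26a3, the apical chloride and bicarbonate exchanger DRA, was at 3.41, 3.51 and 3.23 FPKM in Rspo1 against 13.9, 14.6 and 26.7 in LGR5-ECD (log2 fold change -2.09, SE 0.26, adjusted p = 0.00264). The related Slc26a6 was at 0.919, 1.72 and 2.98 FPKM in Rspo1 against 10.8, 12.7 and 16.3 in LGR5-ECD (log2 fold change -2.35, SE 0.30, adjusted p = 0.00293). Membrane carbonic anhydrase genes were called in both directions. Car12 was at 69.5, 68.9 and 47.99 FPKM in Rspo1 against 20.99, 22.4 and 21.2 in LGR5-ECD (log2 fold change 1.47, SE 0.18, adjusted p = 0.00224) and Car4 at 3.53, 0.141 and 0.564 FPKM in Rspo1 against 20.4, 35.7 and 19.5 in LGR5-ECD (log2 fold change -3.65, SE 0.49, adjusted p = 0.00354). Slc12a2, Slc26a3 and Slc26a6 were named after their values were seen. The antisense transcript Kcnq1ot1 overlaps Kcnq1 and was called higher too (0.79), with an adjusted p of up to 0.146 without LGR5-ECD replicate 1 or 2 or Rspo1 replicate 1, 2 or 3; reads of the pair cannot be told apart because the strand setting is not given in the sources used here.

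**Figure D4:**
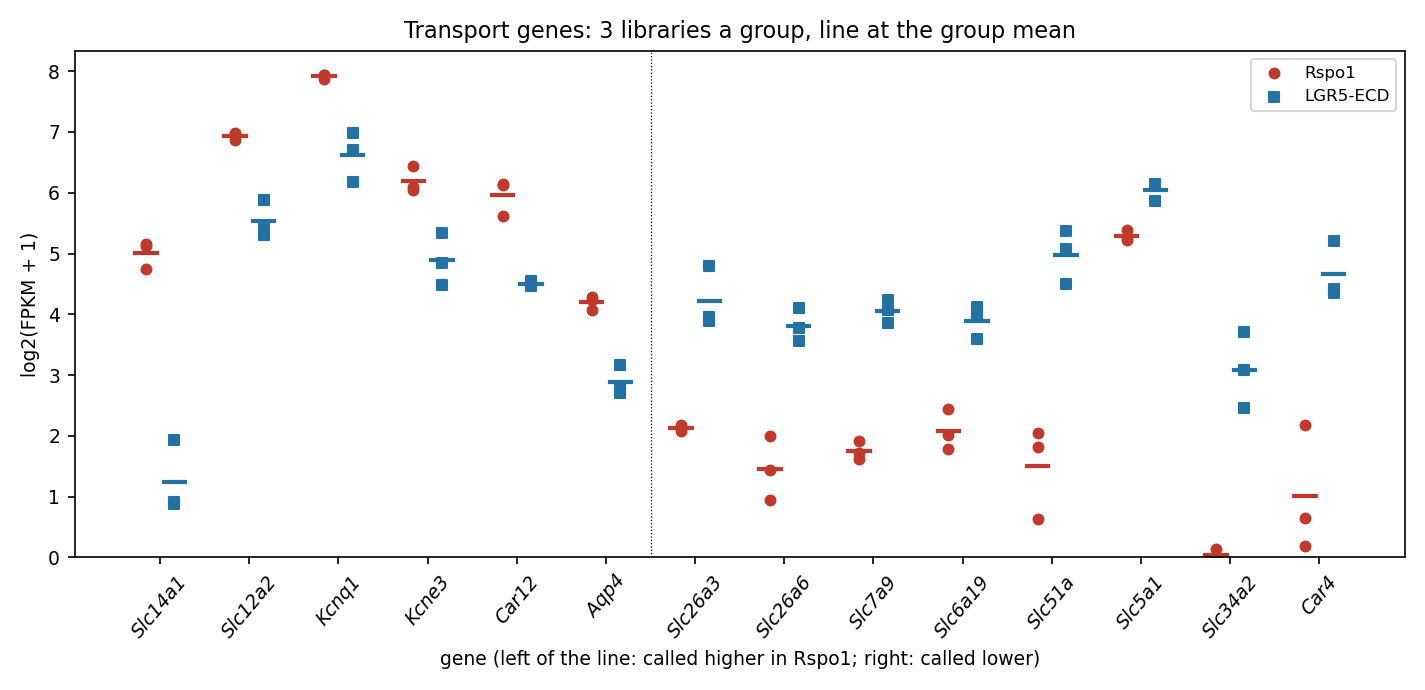
Points give log2(FPKM + 1) of 14 transport genes in each of the 3 Rspo1 (red circles) and 3 LGR5-ECD (blue squares) libraries, with a line at each group mean. In the 6 genes left of the dotted line the Rspo1 libraries lie above the LGR5-ECD libraries and in the 8 on the right below them, without overlap. The genes were picked from those called, none of which overlapped between the groups. Slc34a2 is at or near 0 in Rspo1, and the gap is narrowest for Slc5a1, the glucose carrier gene (log2 fold change -0.75, SE 0.15, adjusted p = 0.0169), which had an adjusted p of up to 0.0833 without LGR5-ECD replicate 1 or 2 or Rspo1 replicate 1, 2 or 3.

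Several genes that handle dietary fat were lower in Rspo1, while the acyl-CoA and acyltransferase list as a whole was not. Mogat2, the first enzyme of triglyceride resynthesis in enterocytes, was at 9.56, 11.6 and 7.58 FPKM in Rspo1 against 46.8, 68.5 and 43.4 in LGR5-ECD (log2 fold change -2.34, SE 0.22, adjusted p = 0.000923). Dgat1, the last enzyme, was at 27.8, 22.6 and 25.98 FPKM in Rspo1 against 54.2, 62.6 and 52.8 in LGR5-ECD (log2 fold change -1.12, SE 0.15, adjusted p = 0.00387). Mttp, which loads lipid onto apolipoprotein B, was at 9.37, 15.1 and 11.2 FPKM in Rspo1 against 35.1, 45.2 and 46.3 in LGR5-ECD (log2 fold change -1.76, SE 0.21, adjusted p = 0.00197). Apoa1, the main protein of high density lipoprotein, was at 29.7, 20.9 and 33.5 FPKM in Rspo1 against 200.2, 206 and 209.8 in LGR5-ECD (log2 fold change -2.85, SE 0.19, adjusted p = 0.000262). Every Rspo1 library was below every LGR5-ECD library for these 4 genes, and the 3 LGR5-ECD values of Apoa1 were nearly equal. Of 17 apolipoprotein and lipoprotein assembly genes 6 fell (3 to 7) and 0 rose by limma, also at an unadjusted p under 0.05. Among 42 acyl-CoA synthetases, thioesterases and acyltransferases 7 fell (5 to 10) and 3 rose (1 to 4), 16.7% and 7.14%, with 27 members above 0 and a median of 0.08. The clearest rise was in Soat1, which esterifies cholesterol, at 47.5, 45.1 and 42.7 FPKM in Rspo1 against 7.26, 2.64 and 3.95 in LGR5-ECD (log2 fold change 3.12, SE 0.28, adjusted p = 0.000721). Phospholipase genes did not follow: Pla2g5 rose (log2 fold change 2.36, SE 0.33, adjusted p = 0.00411) and Plb1, a brush border phospholipase gene, fell (log2 fold change -2.54, SE 0.41, adjusted p = 0.00776).

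Peptidases of the cell surface also divided. Besides Naaladl1, Enpep, aminopeptidase A, was at 2.14, 2.56 and 2.37 FPKM in Rspo1 against 14.4, 29.1 and 15.7 in LGR5-ECD (log2 fold change -2.56, SE 0.27, adjusted p = 0.00137). Ace, angiotensin converting enzyme, was at 9.30, 9.88 and 9.48 FPKM in Rspo1 against 48.1, 48.3 and 40.6 in LGR5-ECD (log2 fold change -2.14, SE 0.15, adjusted p = 0.000286). These are exopeptidases of the brush border. Besides Pgc, the membrane metalloprotease gene Mmp15 was at 15.7, 20.2 and 24.5 FPKM in Rspo1 against 6.23, 3.78 and 1.76 in LGR5-ECD (log2 fold change 2.19, SE 0.34, adjusted p = 0.00664). Over the 61 genes of the list 4 rose (2 to 7) and 9 fell (6 to 12), 6.56% and 14.8%, with a median of 0.06. The enterocyte markers as a whole had 28 of 39 lower (22 to 31) and 0 higher by limma, also at an unadjusted p under 0.05. Their FPKM summed to 807 to 1119 per Rspo1 library and 2077 to 2728 per LGR5-ECD library, and none of the 39 was listed at 0 in all 6. The part of enterocyte content in the transport, lipid and peptidase changes was not tested.

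Enzymes of drug and toxin metabolism fell in several families. Of 14 glucuronosyl- and sulfotransferase genes 6 fell (3 to 8) and 0 rose by limma (1 at an unadjusted p under 0.05), with a median of -1.14. Ugt1a7c was at 3.23, 5.44 and 2.31 FPKM in Rspo1 against 22.6, 15.9 and 17.5 in LGR5-ECD (log2 fold change -2.12, SE 0.27, adjusted p = 0.00296); it shares exons with other Ugt1a genes, so its reads may be split among them. Sult1b1 was at 2.20, 1.61 and 1.27 FPKM in Rspo1 against 7.67, 10.6 and 10.8 in LGR5-ECD (log2 fold change -1.99, SE 0.24, adjusted p = 0.00224). Cytochrome P450 genes gave 7 falls (4 to 7) and 2 rises of 29, 24.1% and 6.90% beside 3.8% and 5.22% of all genes. Cyp4f40 (log2 fold change -3.14, SE 0.29, adjusted p = 0.000831) and Cyp4f14 (log2 fold change -2.22, SE 0.21, adjusted p = 0.000925) were among the falls, while their relative Cyp4f15 rose from 0.392, 1.06 and 0 to 4.70, 7.32 and 4.30 FPKM (log2 fold change 2.15, SE 0.33, adjusted p = 0.0065). Members of this gene cluster were therefore seen on both sides. Cyp2s1 was at 25.9, 20.2 and 19.4 FPKM in Rspo1 against 66.9, 79.9 and 80.9 in LGR5-ECD (log2 fold change -1.76, SE 0.17, adjusted p = 0.000923). Carboxylesterases, which hydrolyse esters and many drugs, gave 4 falls (3 or 4) of 9. Ces2e was at 10.2, 8.33 and 7.63 FPKM in Rspo1 against 49.7, 67.98 and 75.7 in LGR5-ECD (log2 fold change -2.74, SE 0.20, adjusted p = 0.000311). The single rise was in Ces1d (log2 fold change 2.31, SE 0.43, adjusted p = 0.0139), with an adjusted p of up to 0.0661 without LGR5-ECD replicate 2 or Rspo1 replicate 1 or 3.

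Of 30 glycolysis and gluconeogenesis genes 4 fell (3 to 7), 13.3% beside 3.8% of all genes, and 0 rose by limma (2 at an unadjusted p under 0.05). Ldha, lactate dehydrogenase A, was at 77.5, 75.7 and 99.97 FPKM in Rspo1 against 175, 224 and 189.6 in LGR5-ECD (log2 fold change -1.21, SE 0.17, adjusted p = 0.00523). Pfkp, a phosphofructokinase gene, was at 1.81, 1.74 and 2.03 FPKM in Rspo1 against 7.96, 9.49 and 11.4 in LGR5-ECD (log2 fold change -1.88, SE 0.22, adjusted p = 0.0019). Pck1, the gluconeogenic carboxykinase, was at 1.21, 0.779 and 0.773 FPKM in Rspo1 against 8.13, 6.68 and 5.04 in LGR5-ECD (log2 fold change -1.98, SE 0.25, adjusted p = 0.00295). Of 79 respiratory chain and ATP synthase genes 1 rose and 3 fell (1 to 8), with a median of -0.22; the share that fell, 3.80%, was that of all genes. The largest of those falls was in Cox7a1, a cytochrome oxidase subunit gene known from heart and muscle, at 0, 4.31 and 1.69 FPKM in Rspo1 against 18.96, 21.1 and 26.3 in LGR5-ECD (log2 fold change -3.24, SE 0.52, adjusted p = 0.00715). Xdh, xanthine dehydrogenase, was at 5.85, 6.59 and 7.76 FPKM in Rspo1 against 24.7, 23.2 and 26.4 in LGR5-ECD (log2 fold change -1.74, SE 0.17, adjusted p = 0.000964).

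Genes of antigen presentation and the interferon response included more falls than rises. Of 34 MHC class I and antigen processing genes 32 had a negative log2 change and 6 were called lower (2 to 11) and 0 higher by limma, also at an unadjusted p under 0.05, with a median of -0.70. H2-Q5 was at 14.7, 13.3 and 12.8 FPKM in Rspo1 against 46.997, 29.03 and 48.1 in LGR5-ECD (log2 fold change -1.50, SE 0.21, adjusted p = 0.00471). Tap1, a subunit of the peptide transporter, was at 11.3, 8.64 and 14.9 FPKM in Rspo1 against 47.2, 36.6 and 26.2 in LGR5-ECD (log2 fold change -1.57, SE 0.26, adjusted p = 0.00808). The class I genes are near copies, and how reads were divided among them is uncertain. The interferon list had 25 of 49 lower (10 to 26) and 0 higher by limma (1 at an unadjusted p under 0.05), with a median of -0.99. The FPKM summed over the list overlapped between the groups, at 971, 898 and 1379 in Rspo1 against 1766, 1572 and 1257 in LGR5-ECD. Oas1a, an antiviral oligoadenylate synthetase, was at 6.79, 4.84 and 6.63 FPKM in Rspo1 against 35.05, 33.2 and 27.5 in LGR5-ECD (log2 fold change -2.22, SE 0.19, adjusted p = 0.000587). Apol10a, an apolipoprotein L gene outside that list, was at 0.269, 0 and 0.487 FPKM in Rspo1 against 10.3, 6.38 and 15.01 in LGR5-ECD (log2 fold change -3.15, SE 0.33, adjusted p = 0.00115), under 1 FPKM in each Rspo1 library. Each library came from mice given an adenovirus, and the amount of virus is not given in the sources used here.

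Calls among protein synthesis genes were mostly in cytosolic ribosomal proteins. Of 83 cytosolic ribosomal protein genes 79 had a positive log2 change and 23 were called higher (3 to 15), with a median of 0.75 (0.67 after median-ratio scaling). Rpl36a was at 102, 104 and 128 FPKM in Rspo1 against 39.1, 58.7 and 40.2 in LGR5-ECD (log2 fold change 1.27, SE 0.20, adjusted p = 0.00635). Rpl7 was at 304, 255 and 371 FPKM in Rspo1 against 133, 165 and 143 in LGR5-ECD (log2 fold change 1.06, SE 0.19, adjusted p = 0.0114). The count was 3 without Rspo1 replicate 3 and 4 without Rspo1 replicate 1, and processed copies of such genes can take their reads. Mitochondrial ribosomal proteins (77 genes), aminoacyl-tRNA synthetases (37), proteasome subunits (43), Rab GTPases (50) and replication proteins (49) gave 0 calls by limma. At an unadjusted p under 0.05 they had 1, 3, 1, 6 and 1 members higher and 6, 2, 6, 3 and 5 lower, in that order, and their medians lay between -0.15 and 0.06. Of 59 translation initiation and elongation factors 4 rose (0 to 2) and 1 fell, 6.78% and 1.69%, with a median of 0.15. Of 77 spliceosome genes 1 rose, Hnrnpa1 (log2 fold change 0.82, SE 0.21, adjusted p = 0.0431), with an adjusted p of up to 0.133 without LGR5-ECD replicate 1, 2 or 3 or Rspo1 replicate 2 or 3.

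Cyclins, cyclin-dependent kinases and their inhibitors gave 3 rises (1 to 3) and 4 falls (2 to 4) of 41, 7.32% and 9.76%. Cdk6, a kinase of early G1, was at 77.5, 86.3 and 70.9 FPKM in Rspo1 against 29.1, 19.7 and 9.70 in LGR5-ECD (log2 fold change 2.07, SE 0.33, adjusted p = 0.00711). The kinase gene Cdk18, named after its values were seen, fell (log2 fold change -0.94, SE 0.22, adjusted p = 0.0332), with an adjusted p of up to 0.117 without LGR5-ECD replicate 2 or Rspo1 replicate 1, 2 or 3. The inhibitor gene Cdkn1a was at 6.65, 4.43 and 6.76 FPKM in Rspo1 against 25.5, 36.8 and 43.2 in LGR5-ECD (log2 fold change -2.37, SE 0.24, adjusted p = 0.00109). Cdkn2b was at 0.0917, 0.341 and 0.246 FPKM in Rspo1 against 3.05, 3.60 and 4.80 in LGR5-ECD (log2 fold change -1.96, SE 0.26, adjusted p = 0.00335). Both inhibitor genes were lower in every Rspo1 library, and Cdkn2b was under 1 FPKM there. Mki67, a marker of cycling cells, was at 63.4, 65.5 and 66.5 FPKM in Rspo1 against 98.6, 83.9 and 105 in LGR5-ECD and did not pass (log2 fold change -0.55, SE 0.15, adjusted p = 0.0543). Of 58 kinesin and mitotic kinase genes 2 rose, Kif12 (log2 fold change 2.44, SE 0.38, adjusted p = 0.0065) and Kif26b (log2 fold change 1.86, SE 0.33, adjusted p = 0.011), neither of them a mitotic motor, and the latter had an adjusted p of up to 0.0655 without Rspo1 replicate 2 or 3.

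**Figure D5:**
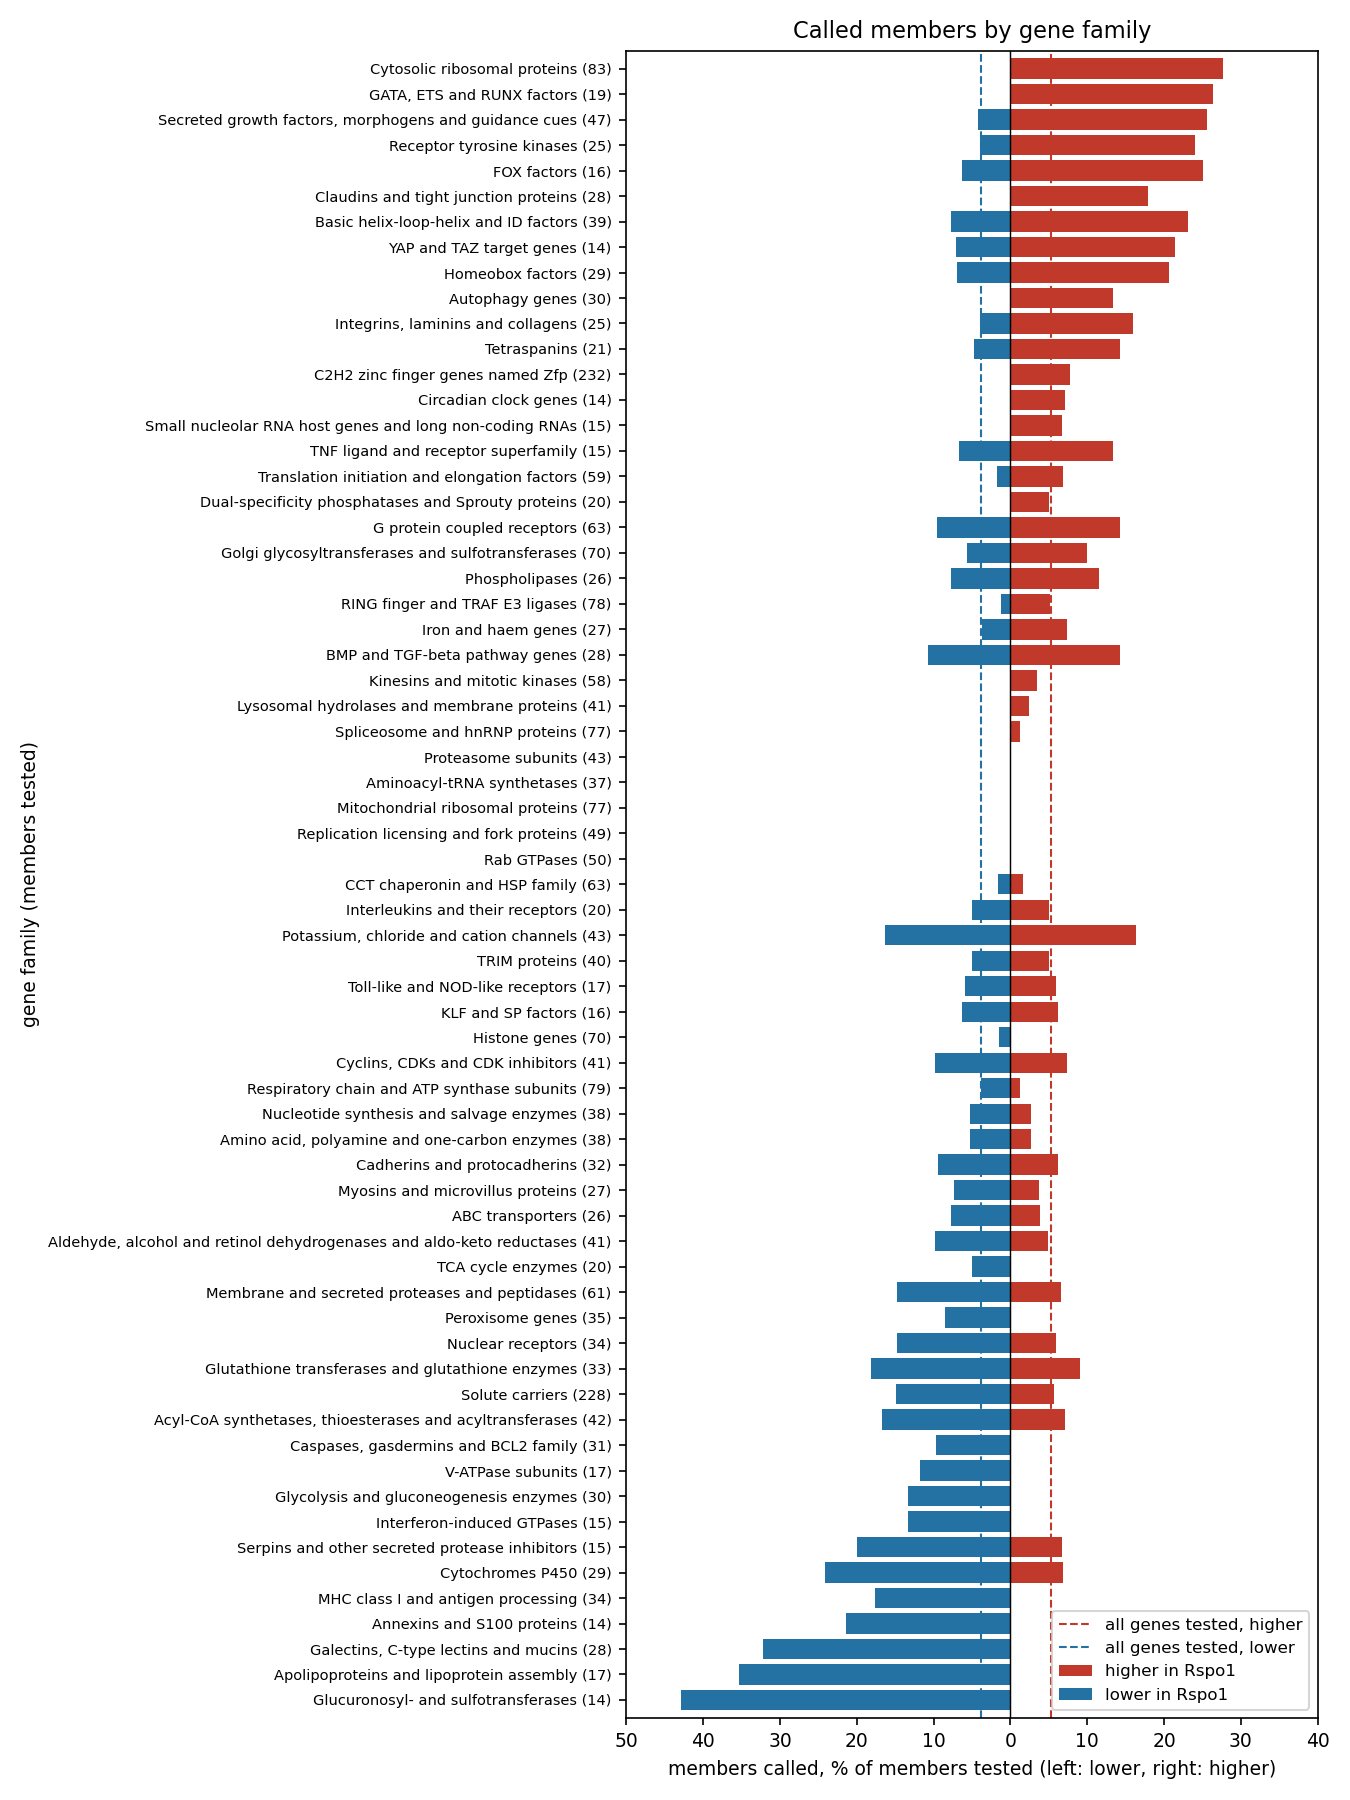
Bars give the percentage of tested members called in gene families with at least 14 tested members (number tested in brackets), higher (red, to the right) or lower (blue, to the left) in Rspo1; dashed lines mark 5.22% and 3.8%, the shares over all genes tested. Cytosolic ribosomal proteins reach 27.7% higher and glucuronosyl- and sulfotransferases 42.9% lower. The channel list, which includes Clca3 and Clca3b, has 16.3% on each side, and 5 families have no bar. The shares are descriptions and rest on few members in the small families.

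Markers of secretory cell types gave smaller counts than the enterocyte markers. Of 22 goblet markers 9 fell (1 to 13) and 1 rose, 40.9% and 4.55% beside 3.8% and 5.22% of all genes. Goblet markers summed to 455 to 907 FPKM per Rspo1 library and 958 to 2948 per LGR5-ECD library. The number lower was 1 without Rspo1 replicate 2, 2 without LGR5-ECD replicate 2 and 3 without Rspo1 replicate 3. Of 20 tuft markers 7 fell (1 to 6) and 1 rose (0 or 1), 35% and 5%. Tuft markers summed to 270 to 436 and 241 to 276 FPKM, of which Cd24a, which other cells of the crypt also express, held most. Without Cd24a the sums were 52.7, 29.8 and 74.8 FPKM in Rspo1 against 110.7, 113.2 and 117.1 in LGR5-ECD, lower in every Rspo1 library; the gene was taken off after its values were seen. Paneth markers gave 3 rises (1 to 5) and 0 falls by limma (0 to 4; 7 at an unadjusted p under 0.05) of 22, and summed to 2676 to 4486 and 2952 to 5828 FPKM. The defensin gene Defa2, which is not on that list, was called lower (log2 fold change -1.83, SE 0.44, adjusted p = 0.0386). Its adjusted p was up to 0.124 without LGR5-ECD replicate 1, 2 or 3 or Rspo1 replicate 2 or 3. The lysozyme gene Lyz1 did not pass (log2 fold change -0.76, SE 0.47, adjusted p = 0.369), at 949, 759 and 437 FPKM in Rspo1 against 571, 2073 and 1287 in LGR5-ECD. Of 14 enteroendocrine markers 0 were called by limma (2 higher and 1 lower at an unadjusted p under 0.05), with sums of 32.4 to 64.2 and 40.0 to 80.4 FPKM. The groups overlapped in the sums of the Paneth, enteroendocrine and whole tuft lists. The part of these cell types in the other changes was not tested.

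Beyond the 84 families and marker lists lay 579 of the 1033 called genes, 376 higher and 203 lower. Among them were Pabpc1, the poly(A) binding protein gene and the third largest gain in FPKM, at 1176 ± 141 FPKM in Rspo1 against 602 ± 88.3 FPKM in LGR5-ECD (SD, n = 3 each) (log2 fold change 0.97, SE 0.22, adjusted p = 0.0273). Pabpc1 had an adjusted p of up to 0.102 without LGR5-ECD replicate 1, 2 or 3 or Rspo1 replicate 1, 2 or 3. Chp2, a cofactor of sodium and proton exchangers, was at 2.96, 3.29 and 1.90 FPKM in Rspo1 against 21.5, 20.6 and 41.7 in LGR5-ECD (log2 fold change -2.91, SE 0.30, adjusted p = 0.00114). Among named genes, the largest off-list rise after Ccdc3 was Phlda1. It was at 13.3, 16.5 and 22.9 FPKM in Rspo1 against 0.458, 0.716 and 0 in LGR5-ECD. Predicted genes and small RNA symbols, which were not named, accounted for 45 of the calls, 28 higher and 17 lower.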

How the data were processed

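The authors deposited FPKM values in 1 table of 24510 rows and 8 libraries. TopHat, HTSeq, Cufflinks, DESeq2 and the mouse build mm9 are named per the submitters' processing notes. Their versions, roles, annotation and strand handling were not given in the sources used, and FPKM carry no depth. From the table, 27 rows whose symbol had turned into a date were removed, 391 identical rows dropped and 89 symbols on several differing rows summed, which left 23969 symbols. Of these, 95.2% were in the reference table of gene names. Genes with at least 1 FPKM in at least 2 of the 8 libraries were kept (11454); control libraries entered this filter and 1 alternative only.

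The log2(FPKM + 1) values, a scale that understates the change of low genes, were fitted with limma 3.58.1 (lmFit, contrast, eBayes with trend) in R 4.3.3 over the 6 libraries, with no covariate and 4 residual degrees of freedom. Each test was two-sided, with a Benjamini-Hochberg adjustment over the 11454 genes and calls at an adjusted p under 0.05. The SE printed is limma's moderated one. The samples are described as biological replicates, but the mice behind each are not described. The p-values therefore measure the spread between these samples, and how much of it lies between mice is not known. Other steps used Python 3.11.15 with pandas 2.3.3, NumPy 2.4.6 and matplotlib 3.10.9.

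The comparison, the 84 gene lists, the 10 motifs and the rule for named genes were chosen with earlier results of these data known, so list counts are descriptions. The rule took, among called genes with a mean of at least 5 FPKM in the higher group and no overlap, predicted genes and small RNA left out, the 20 largest rises and 20 largest falls. It added the 6 largest FPKM differences each way, up to 3 called members of each list each way, up to 6 called genes listed at 0 in a group, and 10 key genes whatever their p, 275 genes in all. In simulated data for this comparison with 200 of 11454 genes changed, 23.5% of log2 changes of 1 and 86% of those of 2 were recovered, with 1 and 4 false calls. The changed genes were drawn from those with a mean log2(FPKM + 1) above 2. The real data gave 1033 calls, so the adjustment differs and these shares need not hold there. A few genes and 1 list are not reported here. Alternatives are given in the closing section.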

Additional observations from a re-analysis of the deposited data

How the results depend on the processing

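Over the 18 alternatives no named gene changed direction and 0 genes were called in the opposite direction. Outside the fits without 1 library, the counts stayed within 1.5 times of 598 higher and 435 lower, except with a replicate block, which gave 319 and 267; the labels do not say that numbers pair mice, and the deviations of same-numbered libraries had r of -0.02, -0.02 and -0.05 across genes. Without 1 library at a time the counts ran from 202 to 667 higher and from 169 to 528 lower, lowest without Rspo1 replicate 2 and highest without LGR5-ECD replicate 3; fewer samples were fitted in each. A pseudocount of 0.1 gave 473 and 371 and of 5 gave 676 and 452, median-ratio scaling 594 and 554, quantile normalization 649 and 605, no filter 457 and 292, all 8 libraries 563 and 405, and array weights 871 and 644. Of 273 named calls 138 held without each library in turn, and 131 were lost without Rspo1 replicate 2. Since FPKM carry no depth, low values and values of 0 have no interval. Changes near 2-fold were mostly missed in simulated data with 200 genes changed. The real data held more calls, so how many such changes were missed there is not known.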

Other observations

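Gene groups outside the families described above were seen on both sides. Lamb3, a laminin gene of the epithelial basement membrane, stood at 13.4, 20.8 and 17.5 FPKM in Rspo1 against 2.97, 5.05 and 6.16 in LGR5-ECD (log2 fold change 1.69, SE 0.27, adjusted p = 0.00673). Lamc1, another laminin gene, rose by 1.02 on the log2 scale, with an adjusted p of up to 0.117 without LGR5-ECD replicate 2 or Rspo1 replicate 1, 2 or 3. Of 25 integrin, laminin and collagen genes 4 rose (1 to 4 without 1 library) and 1 fell (0 to 2), 16% and 4% beside 5.22% and 3.8% of all genes. Every Rspo1 library of Lamb3 lay above every LGR5-ECD library.

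Genes of glycan-forming enzymes were called in both directions. Extl1, a heparan sulfate glycosyltransferase gene, was at 10.5, 9.04 and 6.46 FPKM in Rspo1 against 1.32, 0.297 and 0.293 in LGR5-ECD (log2 fold change 2.60, SE 0.31, adjusted p = 0.00217). St6galnac2, a sialyltransferase of mucin type glycans, was at 149, 131 and 159.7 FPKM in Rspo1 against 77.6, 73.5 and 74.3 in LGR5-ECD (log2 fold change 0.95, SE 0.14, adjusted p = 0.00628). Against them, Gcnt4, a branching enzyme of such glycans, was at 3.48, 2.89 and 4.17 FPKM in Rspo1 against 11.8, 14.4 and 25.5 in LGR5-ECD (log2 fold change -1.95, SE 0.29, adjusted p = 0.00552), beside the fall of St3gal4 given above. Over 70 Golgi enzymes 7 rose (2 to 9) and 4 fell (2 to 7), 10% and 5.71% beside 5.22% and 3.8% of all genes, with a median log2 change of 0.00 as deposited and -0.07 after median-ratio scaling. Cell death genes gave 3 falls (1 to 4) of 31, 9.68% beside 3.8% of all genes. None rose by limma (5 at an unadjusted p under 0.05, 2 called without LGR5-ECD replicate 3). Bcl2l15, the fall with the lowest p, was at 0.105, 0.107 and 0.0212 FPKM in Rspo1 against 3.18, 6.37 and 4.40 in LGR5-ECD (log2 fold change -2.35, SE 0.28, adjusted p = 0.00214). The tetraspanin-like gene Tm4sf5 (log2 fold change -1.15, SE 0.17, adjusted p = 0.00588) and the annexin gene Anxa13 (log2 fold change -1.81, SE 0.23, adjusted p = 0.00278) fell too. Tm4sf5 was the 1 fall (1 or 2) of 21 tetraspanin genes, while 3 rose (0 to 3), 4.76% and 14.3% beside 3.8% and 5.22% of all genes. The phosphatase gene Dusp16, which acts on JNK, rose (log2 fold change 1.58, SE 0.24, adjusted p = 0.00635).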
